A study of Mus musculus with 4 samples.

Results

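Grhl1, Grhl2, Grhl3, Ovol1, Ovol2, Klf4, Klf5, Zfp750 and Prdm1 encode transcription factors of the epidermis, grouped here under terminal differentiation. The p63 peaks at these 9 genes were described among the 21887 protein-coding genes of the mouse annotation used. A peak was taken where its summit, the position of highest read coverage, lay in the body of 1 of these genes or within 50 kb of it (mm10 coordinates). This gave 27 of 14593 peaks in the alphaKO list and 34 of 10616 peaks in the WT list. The peaks came from chromatin immunoprecipitation followed by sequencing (ChIP-seq) with the p63 antibody EPR570 on epidermis of dorsal mouse skin at postnatal day 0. One genotype was labelled p63 alphaKO (alphaKO here) and the other wild type (WT). Each genotype had 1 ChIP library and 1 input library, and the inputs were not used here. The labels do not say what the alphaKO allele removes, which strain was used or how many animals entered a library.

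A single library stood for each genotype, which leaves no replicate check, so no difference between alphaKO and WT was tested and no p-value is given for one. Fold enrichment is the authors' value for each peak, the coverage at the summit over a local background, and pileup is the coverage itself. A fold ranks peaks within its own list; values of the lists stand side by side as a description and do not measure change. The whole alphaKO list had a median fold of 15.5 and the whole WT list of 8.44. The number of reads per library is unknown. The epidermis was used whole, without separation of its layers, and fewer cells with p63 at a site cannot be told apart from less p63 per cell. The keratinocyte genes Trp63, Krt5 and Krt14 had a peak within 50 kb in both lists, although a peak measures no transcript and checks neither the tissue nor the genotype. Markers of other cells also lay near peaks, with 2 of 3 fibroblast genes in alphaKO and 1 of 3 in WT, and 1 of 2 genes in each list for immune cells, endothelium and melanocytes. Of all protein-coding genes, 55.1% had a peak within 50 kb in alphaKO and 47.1% in WT.

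In the epidermis, p63 is most abundant in the proliferating basal layer, where it binds mainly at distal enhancers, and the cells that leave this layer switch on a further set of transcription factors. Grainyhead-like factors (Grhl1, Grhl2 and Grhl3) activate genes of cell junctions and of the skin barrier. Ovol1 and Ovol2 are zinc-finger factors that restrain proliferation and mesenchymal genes. Klf4 is needed in mice for barrier formation, whereas Klf5 is mainly a factor of proliferating epithelial cells. ZNF750, the human counterpart of Zfp750, acts downstream of p63 in human keratinocytes and induces KLF4, and Prdm1 (Blimp1) is a repressor that acts in cells ending their differentiation.

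Peaks reached promoter sequence at Klf4 in both lists and at Grhl1 in WT, and the 250 bases before these starts are shown to place the peaks on them. RefSeq (GRCm38.p6, the assembly that mm10 names) listed 6 starts for 5 of the 9 genes: Grhl1 with 2 starts, and Grhl3, Ovol2, Klf4 and Prdm1. Grhl2, Ovol1, Klf5 and Zfp750 were not matched. The alphaKO peaks overlapped the 250 bases before 1 of the 6 starts, against 2.59% of 32851 listed starts of all genes, and the WT peaks overlapped 2 of the 6, against 5.24%. Peaks of both lists met 1 of the 6, against 1.89%. Each sequence is written 5′ to 3′ and ends at the base before the start. The Grhl1 sequence is chr12:24572037-24572286 on the plus strand and the Klf4 sequence is chr4:55532476-55532725 on the minus strand.
Grhl1: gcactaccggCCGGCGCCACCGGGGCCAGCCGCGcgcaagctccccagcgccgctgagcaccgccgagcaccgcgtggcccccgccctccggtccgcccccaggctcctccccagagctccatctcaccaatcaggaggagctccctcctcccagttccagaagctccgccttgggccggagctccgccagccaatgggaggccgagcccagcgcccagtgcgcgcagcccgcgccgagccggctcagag
Klf4: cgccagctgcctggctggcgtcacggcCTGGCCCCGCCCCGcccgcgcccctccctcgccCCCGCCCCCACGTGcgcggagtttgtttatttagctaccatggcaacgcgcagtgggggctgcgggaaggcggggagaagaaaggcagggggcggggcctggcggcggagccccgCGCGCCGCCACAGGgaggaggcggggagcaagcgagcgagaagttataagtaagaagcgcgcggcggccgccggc
Capitals mark matches to the core of the paired half-sites bound by p53-family factors, spelled CNNGNNNNNNCNNG, which reads the same on both strands. The Grhl1 sequence held 2 overlapping matches, 240 to 217 bases before the start, and both lay outside the WT peak, which covered the last 99 of the 250 bases. The Klf4 sequence held 3 matches, beginning 223, 190 and 75 bases before the start, each inside the alphaKO peak and inside the WT peak. Such letters are common: 63.5% of all listed starts had a match in the same 250 bases. The stricter form, with only A or T inside each half-site, was found in 5.84% of all starts and in neither of these sequences.

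Of the 9 genes, 6 had a peak in the alphaKO list and all 9 in the WT list. In the whole annotation 55.1% of genes had an alphaKO peak within 50 kb and 47.1% a WT peak. Grhl2, Grhl3, Ovol1, Ovol2, Klf4 and Zfp750 were marked in both lists, as were 41.0% of all genes. Grhl1, Klf5 and Prdm1 were marked in WT only, a pattern of 6.14% of all genes, while 14.1% were marked in alphaKO only, a pattern that none of the 9 had. None of the 9 was without a peak in both lists, as 38.8% of all genes were. Weak peaks decided some of these calls: at a fold of at least 5 the marked genes were 6 in alphaKO and 6 in WT, since the single WT peaks of Klf5, Prdm1 and Ovol2 dropped out, beside 54.0% of all genes in alphaKO and 39.6% in WT. With 100 kb flanks all 9 genes were marked in both lists, beside 70.4% of all genes in alphaKO and 61.0% in WT. At least 5 peaks lay at Grhl2, Grhl3 and Zfp750 in each list, which 4.11% of all genes reached in alphaKO and 3.76% in WT. The windows are of unequal length, the Grhl2 window being the longest.

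**Figure D1:**
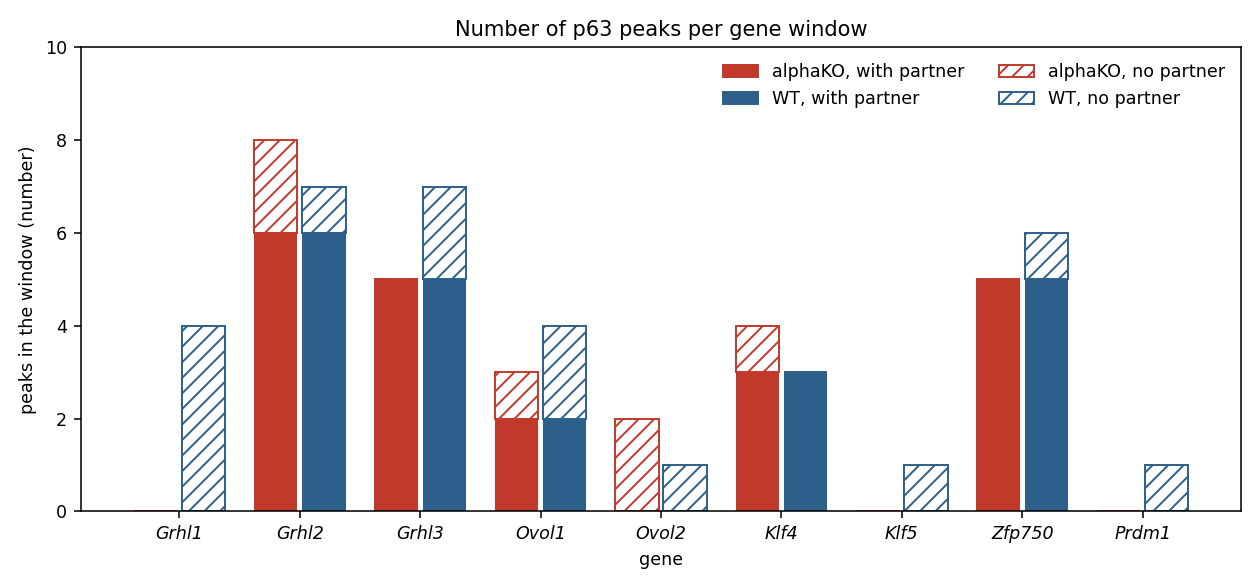
Number of peaks in the window of each gene (vertical axis), with the alphaKO bar left of the WT bar; filled parts have a partner in the other list and hatched parts have none. Grhl2 has 8 alphaKO and 7 WT peaks, and Grhl1, Klf5 and Prdm1 have WT bars alone, all of them without a partner.

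Peaks were called partners where they shared at least 1 bp. Of the 27 alphaKO peaks, 21 (77.8%, 95% Wilson interval 59.2 to 89.4) had a WT partner, beside 48.4% of all alphaKO peaks. The same 21 sites made up 61.8% (45.0 to 76.1) of the 34 WT peaks, beside 66.6% of all WT peaks. They belonged to 5 of the 9 genes, while 36.6% of all genes had such a site within 50 kb: Grhl2 with 6 sites, Grhl3 and Zfp750 with 5 each, Klf4 with 3 and Ovol1 with 2. The intervals cover counting error only, and peaks of 1 gene are not independent. At the 21 sites the summits of the lists lay a median of 7 bp apart, and 17 pairs (81.0%) lay within 20 bp, beside 78.4% of 7054 pairs in the whole lists. The remaining 4 pairs (19.0%) lay more than 100 bp apart, up to 551 bp, beside 4.86% of the pairs in the whole lists. These were the distal Klf4 site, the Klf4 promoter and the Zfp750 sites 24.6 kb and 26.2 kb above the gene in alphaKO. When at least 50% of both peaks had to overlap, 15 sites counted as shared, 55.6% of these alphaKO peaks and 44.1% of these WT peaks. The shares of all peaks given above are for 1 bp and are no background for that rule.

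Folds at these genes ran from 2.93 to 73.4 with a median of 16.9 in alphaKO, and from 2.46 to 61.4 with a median of 9.06 in WT. The whole lists ran from 1.08 to 381.8 in alphaKO and from 1.06 to 167.4 in WT. The strongest 20% of each list held 8 of the 27 alphaKO peaks (29.6%) and 12 of the 34 WT peaks (35.3%). The 6 alphaKO peaks without a WT partner had folds of 7.41 to 61.4, and the 13 WT peaks without an alphaKO partner had folds of 2.46 to 15.4. Every one of the 9 WT peaks with a fold under 5 lacked a partner, whereas the 3 alphaKO peaks under 5 all had one. Of all peaks with a fold under 5, 46.8% in the alphaKO list and 78.8% in the WT list lacked a partner. The recovered local background was 4.26 to 11.6 in alphaKO and 5.94 to 16.1 in WT, and none exceeded the value of 50 used here to mark places of repeat-like coverage.

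**Figure D2:**
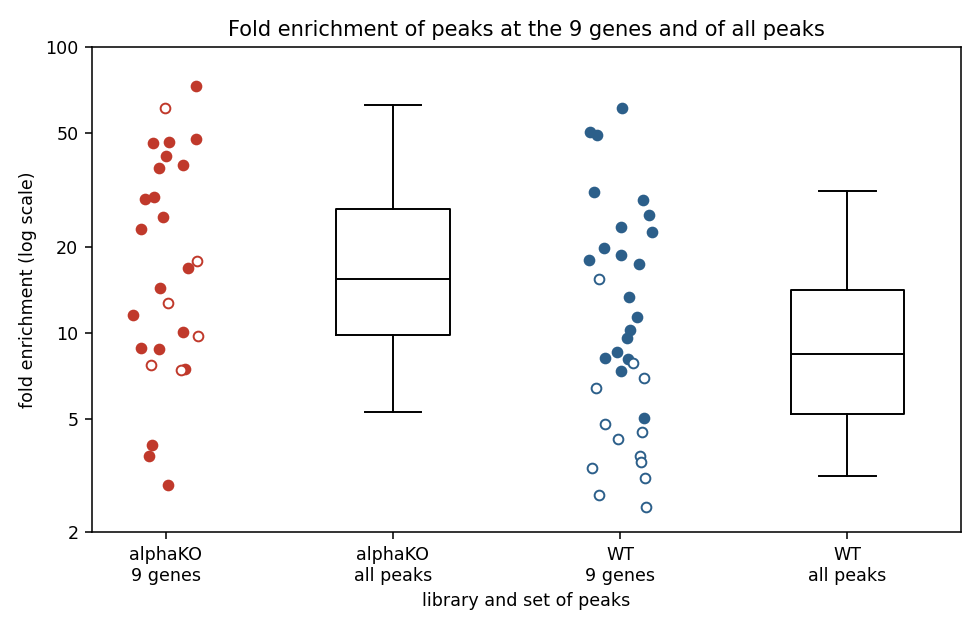
Fold enrichment on a log scale for the 27 alphaKO and 34 WT peaks at the 9 genes (points; filled with a partner in the other list, open without) and for all peaks of each list (boxes give the median and quartiles, whiskers the 5th and 95th percentiles). The WT points without a partner sit at 2.46 to 15.4, while 1 open alphaKO point reaches 61.4.

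**Figure D3:**
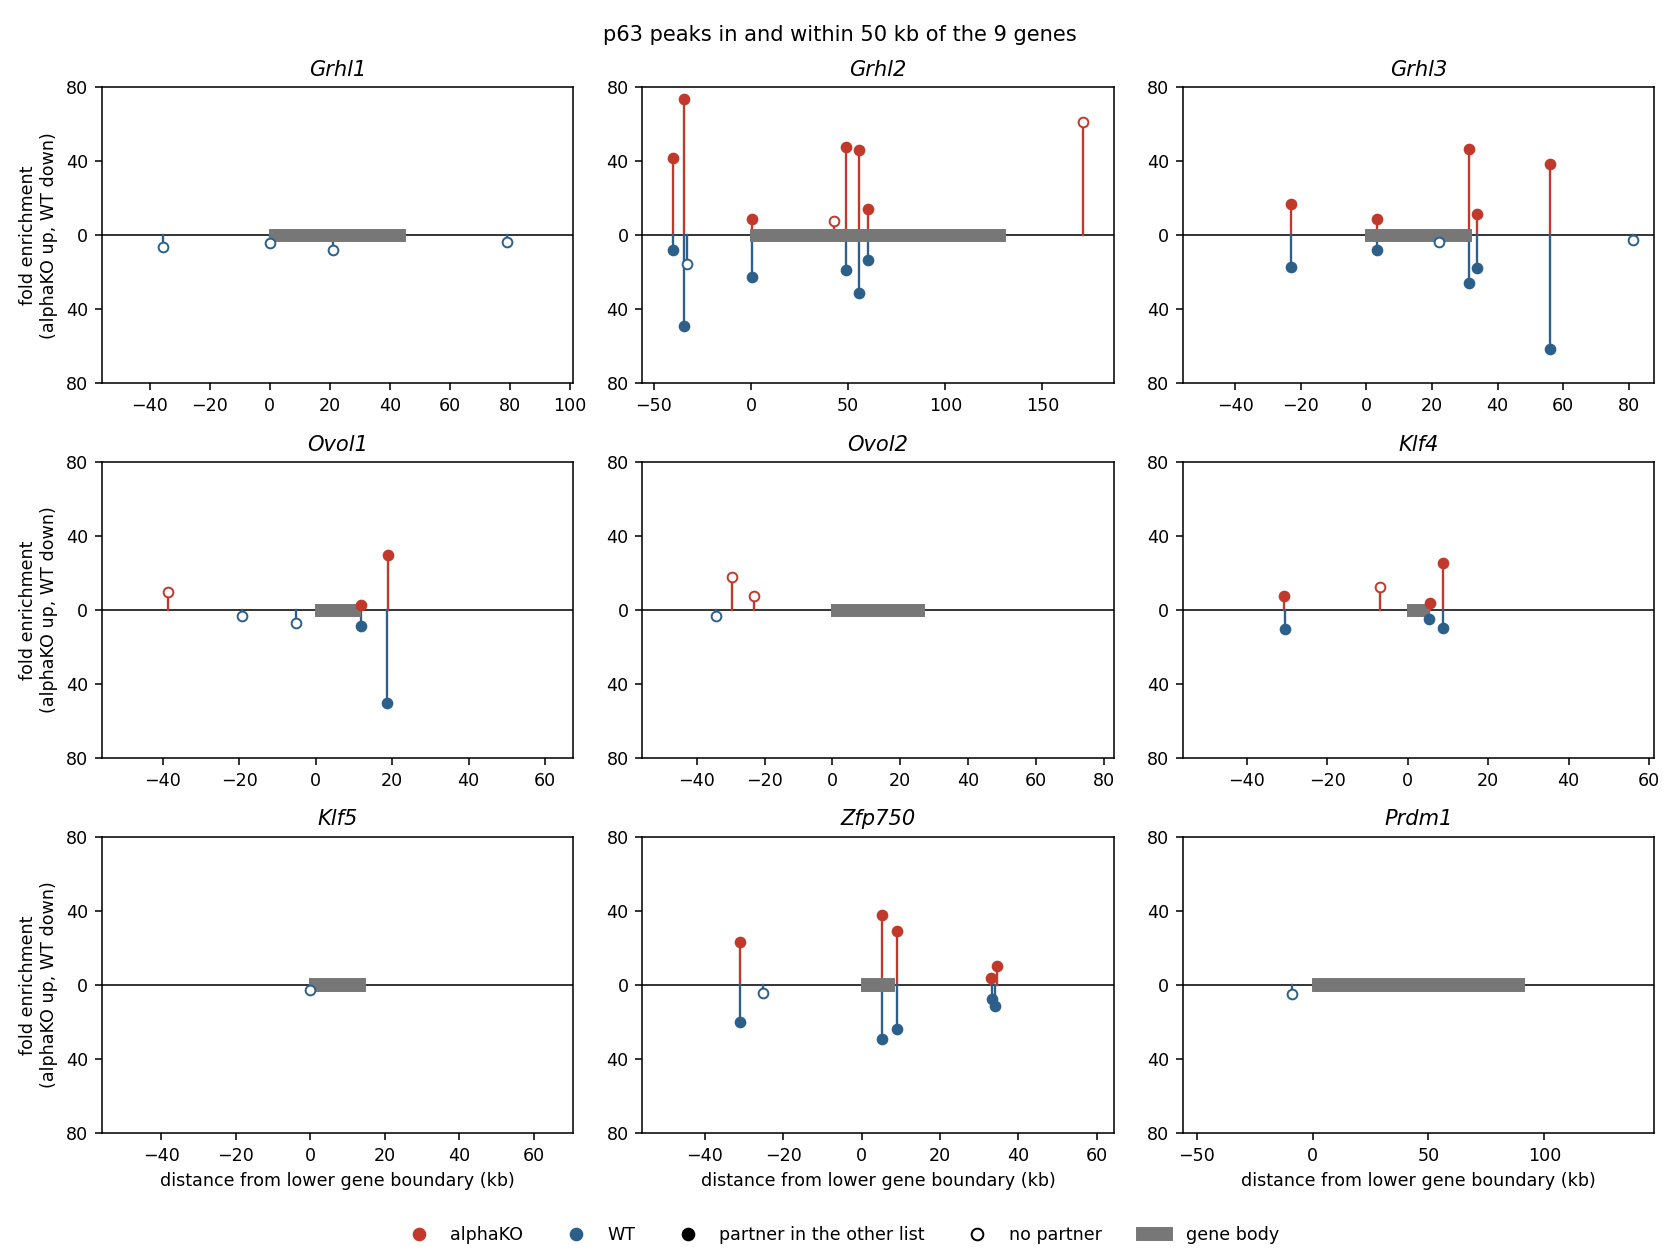
Fold enrichment of each peak (alphaKO upwards, WT downwards) against the distance of its summit from the lower-coordinate boundary of the gene, in kb; the grey bar is the gene body, filled points have a partner in the other list and open points have none. Grhl2, Grhl3 and Zfp750 show paired stems at 6, 5 and 5 sites, and Grhl1, Klf5 and Prdm1 show short WT stems alone.

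Grhl2, which upholds epithelial identity through genes such as that of E-cadherin, carried 8 alphaKO peaks, the most of the 9 genes, and 7 WT peaks, as many as Grhl3 (chromosome 15, 37232821 to 37363569). Its gene body spans 131 kb. The strongest peak of the gene in either list lay 34.7 kb outside the lower boundary, with a fold of 73.4 and a pileup of 642 in alphaKO and a fold of 49.3 and a pileup of 637 in WT. Its summits, 37198132 in alphaKO and 37198131 in WT, were 1 bp apart. This site was at rank 487 of the alphaKO list and at rank 127 of the WT list. A second distal site, 40.4 kb outside, had a fold of 41.7 (pileup 272) in alphaKO and of 8.19 (pileup 71) in WT.

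Inside Grhl2 the lists met at 4 sites. The site next to the lower boundary, 472 bp inside it in alphaKO and 462 bp in WT, had a fold of 8.86 in alphaKO and 22.6 in WT, with a pileup of 98 in alphaKO and 233 in WT. This was the weakest shared Grhl2 site of the alphaKO list, at percentile 19.4, and stood at percentile 89.5 of the WT list. Deeper in the gene, folds were 47.7 in alphaKO and 18.7 in WT at 49.1 kb from the boundary, 46.2 in alphaKO and 31.1 in WT at 55.7 kb, and 14.4 in alphaKO and 13.4 in WT at 60.4 kb. Each of these 3 inner sites had its summits within 15 bp of each other. In alphaKO the boundary site was thus below these 3 shared inner sites, and in WT it was above 2 of the 3.

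The Grhl2 window also held sites of a single list. In alphaKO a peak 39.9 kb beyond the higher boundary reached a fold of 61.4 (pileup 322), the highest of all unpartnered peaks at the 9 genes, and its nearest WT summit was 110 kb away. It lay in the body of Ncald, which encodes a calcium sensor of neurons. A weak alphaKO peak inside Grhl2 (fold 7.71) and a WT peak 33.2 kb outside the lower boundary (fold 15.4) also lacked partners. The WT peak stood 1.47 kb from the nearest alphaKO summit.

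Grhl3, which mouse embryos need to form the skin barrier, had all 5 of its alphaKO peaks paired with WT peaks (chromosome 4, 135541887 to 135573632, minus strand). The leading site differed between the lists. In alphaKO it was the site just after the listed start, with a fold of 46.6 (pileup 565), where WT had 25.8 (pileup 413). The summits lay 388 bp (alphaKO) and 393 bp (WT) into the gene. In WT the leading site was 24.1 kb before the start, with a fold of 38.7 (pileup 360) in alphaKO and of 61.4 (pileup 471) in WT, which was rank 50 of the WT list and the strongest WT peak at any of the 9 genes.

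The other shared Grhl3 sites were weaker. One lay 2.06 kb before the start, with folds of 11.6 in alphaKO and 18.0 in WT. Another, 3.33 kb inside the lower boundary, had 8.79 in alphaKO and 8.12 in WT. The site 23.0 kb below the gene, with 16.9 in alphaKO and 17.4 in WT, lay in the body of the neighbouring gene Stpg1. WT alone had 2 further peaks with folds of 3.54 and 2.70, the second of them 49.6 kb from the gene and so close to the edge of the window.

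Grhl1, which is known for its control of a desmosomal cadherin gene in skin, had no alphaKO peak and 4 WT peaks (chromosome 12, 24572232 to 24617391). All 4 had folds below the median of the WT list, 8.44. The strongest, with a fold of 7.87 and a pileup of 63, lay 21.2 kb inside the gene, and the one at the start shown above had a fold of 4.51 and a pileup of 41, with its summit 96 bp after the listed start. The others belonged by position to neighbours: one lay in Taf1b (fold 6.41) and one 0.095 kb from Klf11 (fold 3.70). The nearest alphaKO summit stood 92.3 kb beyond the gene, in Rrm2, with a fold of 17.0 in alphaKO and 11.2 at the same site in WT.

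Zfp750 had 5 sites where peaks of both lists overlapped (chromosome 11, 121510976 to 121519342). The gene lies wholly inside the body of Tbcd, which encodes a tubulin-folding cofactor. The strongest site was in the Zfp750 body, 5.18 kb from its lower boundary, with the summits of both lists at the same base, 121516160. It had a fold of 37.7 (pileup 384) in alphaKO and of 29.1 (pileup 361) in WT. Next to the higher boundary, 0.551 kb outside it in alphaKO, stood a site with 29.4 in alphaKO and 23.5 in WT. Another site, 31.0 kb below the gene, had 23.1 in alphaKO and 19.7 in WT.

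Farther above Zfp750 a pair of neighbouring sites had lower folds. The nearer one, 24.6 kb out in alphaKO, had 3.70 in alphaKO and 7.32 in WT, and its summits were 200 bp apart. The farther one had 10.0 in alphaKO and 11.4 in WT, with summits 551 bp apart. A WT peak 25.2 kb below the gene, with a fold of 4.24, had no partner. Since Tbcd holds every one of these summits, only the site in the Zfp750 body can be given to Zfp750 by position, and with that rule each list kept 1 peak.

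**Figure D4:**
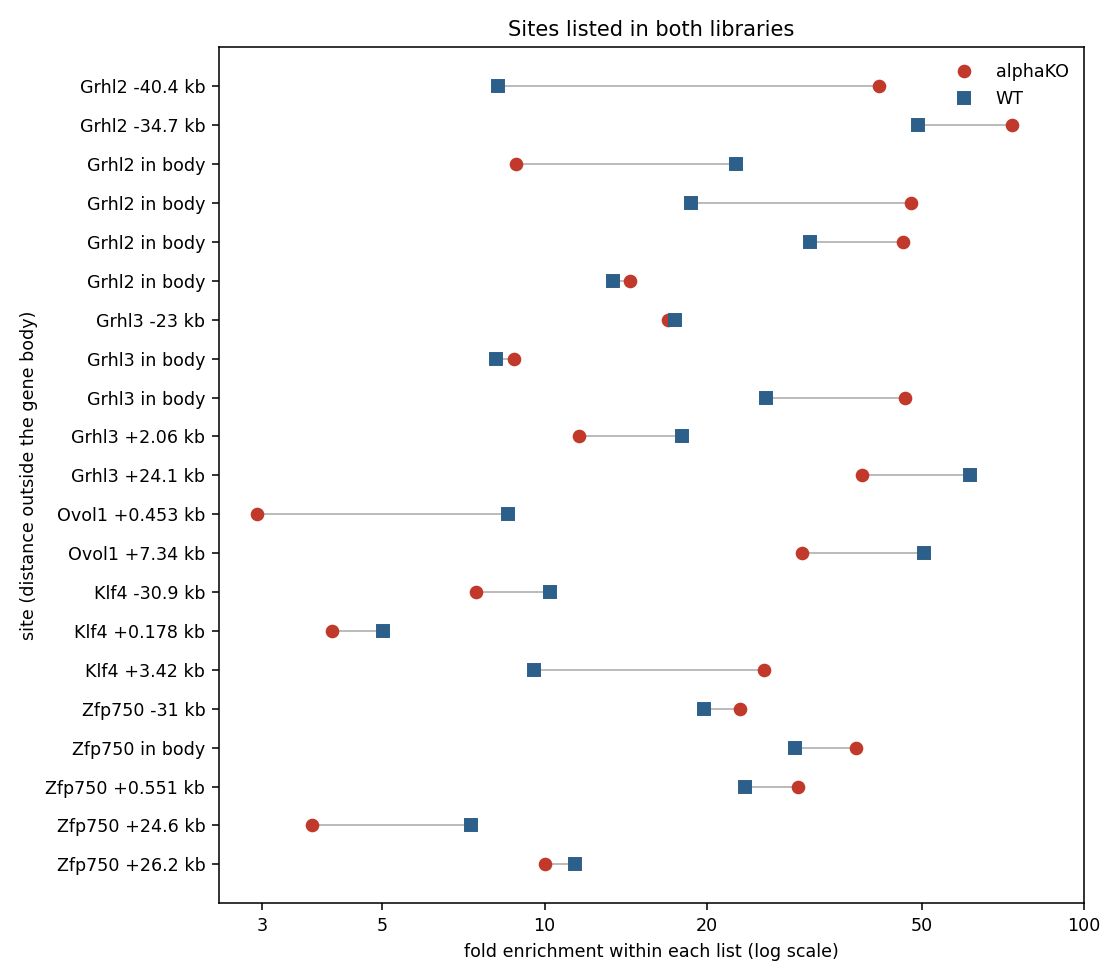
Fold enrichment on a log scale at the 21 sites listed in both libraries (alphaKO circles, WT squares), labelled by gene and by the distance of the alphaKO summit below (-) or above (+) the gene body. The grey line joins the values of 1 site and is no measure of change. The alphaKO fold spans 2.93 to 73.4 and the WT fold 5.02 to 61.4. The order of sites differs between the lists within Grhl2, Grhl3 and Klf4 and is the same within Zfp750 and Ovol1.

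Klf4 had 4 alphaKO and 3 WT peaks, all nearer to Klf4 than to any other protein-coding gene (chromosome 4, 55527137 to 55532475, minus strand). The strongest alphaKO peak, 3.42 kb before the start, had a fold of 25.5 (pileup 185), and the WT peak with its summit at the same base, 55535890, had 9.56 (pileup 88). The strongest WT peak lay below the gene, after its end, with a fold of 10.2 (pileup 96) where alphaKO had 7.48 (pileup 55). The summits of that site were 419 bp apart, 30.9 kb (alphaKO) and 30.5 kb (WT) from the gene body. At the promoter shown above the folds were 4.03 (pileup 40) in alphaKO and 5.02 (pileup 54) in WT, and the summits lay 178 bp (alphaKO) and 46 bp (WT) before the start. The promoter site was thus the weakest Klf4 site in both lists. An alphaKO peak 6.92 kb below the gene (fold 12.7) had no partner.

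Klf5 had no alphaKO peak in its window and a single WT peak of low rank (chromosome 14, 99298691 to 99313412). That peak, 148 bp outside the lower boundary, had a fold of 2.46, a pileup of 41 and a −log10 q of 4.48, and it stood at percentile 1.07 of the WT list. It dropped out at −log10 q of at least 10. Just outside the window, 57.4 kb from the gene and in the body of Pibf1, stood a site of both lists. Its fold was 50.6 (pileup 328) in alphaKO and 8.75 (pileup 126) in WT. Pibf1 also held a shared site 92.2 kb away, with 22.5 in alphaKO and 8.42 in WT. Unpartnered alphaKO peaks in Pibf1, 55.4 kb and 61.4 kb away, had folds of 6.78 and 4.43. On the other side, 78.3 kb away in alphaKO, both lists had a site for which Klf5 was the nearest gene, with folds of 12.7 in alphaKO and 11.2 in WT.

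Prdm1 was marked by 1 WT peak, 9.04 kb below the gene, with a fold of 4.78 and a pileup of 45, and by no alphaKO peak (chromosome 10, 44437174 to 44528558). Here too a shared site stood just past the limit. At 55.6 kb below Prdm1, nearest to Atg5, a gene of autophagy, the lists met with summits at 44381598 in alphaKO and 44381602 in WT. Its fold was 83.2 (pileup 727) in alphaKO and 42.6 (pileup 484) in WT, at percentile 97.6 of the alphaKO list and 98.1 of the WT list. In alphaKO this was stronger than any peak inside the 9 windows. The farthest peak inside any window was the weak WT peak 49.6 kb from Grhl3.

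Ovol1 was led by a site 7.34 kb above the gene in alphaKO (chromosome 19, 5549137 to 5560575), where the fold was 30.0 (pileup 287) in alphaKO and 50.4 (pileup 559) in WT. It stood at percentile 78.4 of the alphaKO list and 98.9 of the WT list. Close to the higher boundary, 453 bp outside it in alphaKO and 451 bp in WT, the lists also met, with a fold of 2.93 (pileup 36) in alphaKO and of 8.55 (pileup 132) in WT. The alphaKO peak there was the weakest of the 27 alphaKO peaks, at percentile 0.603 of its list. Both shared summits lay in the body of Ap5b1, which overlaps the higher end of Ovol1. Unpartnered peaks were 1 in alphaKO, in Snx32 (fold 9.78), and 2 in WT (folds 3.36 and 6.94).

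Ovol2, the paralogue of Ovol1, had no shared site (chromosome 2, 144305175 to 144332080). Its alphaKO peaks lay 29.7 kb and 23.2 kb below the gene, with folds of 17.8 (pileup 128) and 7.41 (pileup 41). The WT peak lay 34.2 kb below it, with a fold of 3.09 and a pileup of 31, and was 4.58 kb from the nearest alphaKO summit. All 3 were in or nearest to Mgme1, which encodes a mitochondrial exonuclease, and none remained with flanks of 10 kb. Within 10 kb, Ovol1 had peaks in both lists and Ovol2 in neither.

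Ranked by the strongest fold in the window, the genes ran Grhl2 (73.4), Grhl3 (46.6), Zfp750 (37.7), Ovol1 (30.0), Klf4 (25.5) and Ovol2 (17.8) in alphaKO. In WT they ran Grhl3 (61.4), Ovol1 (50.4), Grhl2 (49.3), Zfp750 (29.1), Klf4 (10.2), Grhl1 (7.87), Prdm1 (4.78), Ovol2 (3.09) and Klf5 (2.46). The same 5 genes led both lists, in another order. Without replicates, neighbours in these orders, such as Ovol1 and Grhl2 in WT, cannot be separated.

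Many of these peaks lay in or nearer to other genes. In alphaKO 8 of 27 summits and in WT 10 of 34 lay in the body of 1 of the 9 genes. Another gene held the summit, or lay nearer to it, for 11 alphaKO peaks and 12 WT peaks. Without them, 4 genes stayed marked in alphaKO (Grhl2, Grhl3, Klf4 and Zfp750) and 8 in WT. The shares of all peaks and all genes under these rules were not computed. The counts are therefore a description without a background.

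The gene lists compared from here on were chosen with earlier results of these data known, so their counts are descriptions. Most other regulators of epidermal differentiation were marked as well. Of 25 such genes, 22 had an alphaKO peak and 23 a WT peak within 50 kb, 21 of them in both, beside 55.1% of all genes in alphaKO, 47.1% in WT and 41.0% in both. The 25 regulators had a median of 3 alphaKO and 4 WT peaks a gene, the same medians as for the 9 genes. For all protein-coding genes the medians were 1 in alphaKO and 0 in WT. The strongest folds in alphaKO among those marked in both belonged to Barx2, a homeobox factor (157 in alphaKO and 41.3 in WT), Trp63 itself (100.3 in alphaKO and 109.6 in WT), Dlx3 (81.4 in alphaKO and 60.1 in WT) and Cebpa (73.4 in alphaKO and 92.8 in WT). Ehf, an ETS factor (11.5), and Id1 (9.54, with 6 peaks) were marked in WT only, and Sox9 (7.45) in alphaKO only. Among these 25 regulators, those closest to the median percentile of the 9 genes' strongest folds, 81.8 in alphaKO (6 genes) and 60.3 in WT (9 genes), were Pou2f3 (61.6 in alphaKO and 61.4 in WT), Casz1 (95.4 in alphaKO and 81.2 in WT) and Tfap2a (91.7 in alphaKO and 85.2 in WT).

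Relatives in the same gene families were marked in part. Of 15 other KLF genes, 9 had an alphaKO and 10 a WT peak, 7 both, beside 55.1% of all genes in alphaKO, 47.1% in WT and 41.0% in both. The highest alphaKO folds among these were at Klf10 (19.7 in alphaKO and 12.5 in WT), Klf3 (19.4 in alphaKO and 28.3 in WT), Klf11 (17.0 in alphaKO and 11.2 in WT) and Klf7 (16.7 in alphaKO and 18.0 in WT). The Klf11 values are those of the site in the body of Rrm2 given above for Grhl1. Klf15 (13.0) and Klf1 (5.74) were marked in alphaKO only, and Klf12 (4.64) led those in WT only. Of 13 other PRDM genes, 7 had an alphaKO and 6 a WT peak, against those same shares of all genes. The marked PRDM genes were led by Prdm11 (84.0 in alphaKO and 41.9 in WT), Prdm10 (75.4 in alphaKO and 38.2 in WT), Prdm15 (40.9 in alphaKO and 31.8 in WT) and Prdm16 (25.5 in alphaKO and 10.8 in WT), while Prdm9 (7.18) was marked in alphaKO only. Tfcp2, a relative of the grainyhead-like genes, had 109.4 in alphaKO and 23.5 in WT, and Ovol3 had 16.5 in alphaKO and 9.08 in WT. With Tfcp2l1 and Ubp1, all 4 listed relatives of the grainyhead-like and Ovol genes were marked in both lists, beside 41.0% of all genes.

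Genes reported as targets of these factors were marked in 7 of 10 cases in each list and in 6 in both, beside 55.1% of all genes in alphaKO, 47.1% in WT and 41.0% in both. They included Cdh1, which encodes E-cadherin (172.8 in alphaKO and 127.1 in WT), Tgm1, a cross-linking enzyme of the cornified envelope (45.3 in alphaKO and 20.05 in WT), the cell-cycle inhibitor gene Cdkn1a (34.7 in alphaKO and 25.9 in WT) and Cldn4, a tight junction gene (26.6 in alphaKO and 19.7 in WT). Dsg1a had an alphaKO peak (17.5) and no WT peak, and Esrp1, a splicing regulator of epithelia, had WT peaks alone (10.1, with 5 peaks). Zeb1 and Zeb2, mesenchymal factors repressed by Ovol and Grhl proteins, had no peak in either list, as was so for 38.8% of all genes. Windows of 50 kb can hold sites nearer to other genes, and apart from the Klf11 site in Rrm2 this was not examined for the compared genes.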

How the data were processed

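Per the labels' protocols, chromatin of cross-linked epidermal cells was precipitated with a p63 antibody. The submitters' processing notes name Bowtie2, MACS2 2.1.1.20160309 and mm10, and say nothing of options, duplicate reads or the control behind each call. The deposited columns are, per the file headers, a pileup (a coverage signal), a fold enrichment (a ratio), and −log10 of the p-value and q-value. Each list came from 1 library. Numbers not used in the peak names (31 in alphaKO, 26 in WT) fell in or beside none of the 9 windows.

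Genes came from RefSeq GRCm38.p6. The local background came from the pileup and fold of a peak, with the caller's pseudocount of 1. Lists were compared by overlap of at least 1 bp, with 95% Wilson intervals and no test between genotypes. Genes and lists were chosen with earlier results of these data known. Named besides the 9 genes were neighbours that hold or lie nearer to a summit, up to 4 genes per list marked in both libraries, up to 3 marked in a single library by fold, and the 3 with the closest percentiles. Peaks past the 50 kb limit were named after their values were seen. The overlap and window steps were tested on simulated data. Alternatives were other flanks, stricter q or fold, equal list lengths, assignment to the nearest gene and other definitions of overlap. The software was Python 3.11.15 with SciPy 1.17.1, pandas 2.3.3, NumPy 2.4.6 and, for figures, matplotlib 3.10.9.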

Additional observations from a re-analysis of the deposited data

How the results depend on the processing

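No paired analysis was possible because each genotype had 1 library, and no library could be left out. Of the values at the 9 genes, the number of genes with a peak stayed within 1.5 times of 6 (alphaKO) and 9 (WT) under all 16 alternative values, at 4 to 9 in alphaKO and 6 to 9 in WT. The number of peaks moved further with 10 kb flanks (15 in alphaKO, 19 in WT), with assignment to the member that holds or is nearest to the summit (16 in alphaKO, 22 in WT) and with equal list lengths (17 in alphaKO). The share of peaks with a partner became 55.6% in alphaKO and 44.1% in WT with 50% overlap of both peaks. With equal list lengths, which removes alphaKO peaks by construction, it became 41.2% in WT. No share of all peaks under the same settings stands beside these values.

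The strongest fold of a gene moved where a flank added or removed its leading site. With 10 kb or 25 kb flanks it was 47.7 in alphaKO and 31.1 in WT for Grhl2, and 9.56 in WT for Klf4. With 10 kb it was 25.8 in WT for Grhl3, and with 25 kb 7.41 in alphaKO for Ovol2. With 100 kb it was 11.2 in WT for Grhl1, 11.2 in WT for Klf5 and 42.6 in WT for Prdm1, these genes also gained alphaKO peaks, and 11 (alphaKO) and 10 (WT) of the other PRDM genes were marked. By nearest gene it was 6.94 in WT for Ovol1, and no alphaKO peak remained for Ovol1 or Ovol2. No value remained for Ovol2 in either list with 10 kb flanks.

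The share of all genes with a peak was 30.6% in alphaKO and 26.4% in WT with 10 kb flanks, 42.1% in alphaKO and 35.7% in WT with 25 kb, and 70.4% in alphaKO and 61.0% in WT with 100 kb. It was 42.7% in WT at −log10 q of at least 10, 54.0% in alphaKO and 39.6% in WT at a fold of at least 5, and 47.3% in alphaKO with equal list lengths. Leaving out peaks with a background above 50, an alternative chosen after seeing the data, moved none of these values. The number of reads per library is unknown, and a site absent from a list can lie under its threshold.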
